A study of Mus musculus with 12 samples.

Results

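The genes examined here encode the BMP, TGF-beta and Nodal pathway, from its secreted ligands to its Smad effectors and Id targets, and they were set against a list of BRG1-bound regions labelled as of wild-type cardiac progenitors (CPs). The list of 40 genes was given by gene symbol and holds 12 ligands, 6 antagonists, 10 receptors, 8 Smads and 4 Ids. All 40 were found among the 22367 protein-coding genes of the annotation. BRG1 is the ATPase of BAF complexes, which use ATP to move or evict nucleosomes. The CPs were grown from mouse embryonic stem cells of the W4/129S6 strain, with wild-type genotype, as embryoid bodies given VEGF, Activin and BMP4 and then as monolayers given FGFs. A ligand of each branch described here was therefore part of the medium. BRG1 was mapped by ChIPseq, in which the DNA recovered with an antibody to the protein is sequenced. Behind the region list stood 2 BRG1 ChIP libraries and 1 input library, and the other 9 of the 12 libraries (cardiomyocytes, CMs, of 3 genotypes and CPs without the BAF subunit BAF170) were not used here.

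In this pathway a ligand dimer joins type I and type II receptor kinases, and the type I receptor then phosphorylates receptor-activated Smads, which enter the nucleus with Smad4. Smad1, Smad5 and Smad9 serve the BMP branch, Smad2 and Smad3 serve the TGF-beta, Nodal and activin branch, and Smad6 and Smad7 are inhibitory Smads that are themselves induced by the signal. Secreted antagonists such as Noggin and Chordin hold ligands away from their receptors, and the Id genes, direct BMP targets, encode helix-loop-helix proteins without a DNA-binding domain of their own. BMP signals help to specify cardiac mesoderm, and Nodal and activin signals act before them in the primitive streak.

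The list named 3473 distinct regions on mm9 and gave no height, fold enrichment or P-value, so the unit of every statement below is whether a region was listed, where it lay and how wide it was. The cell state behind the list is in some doubt, since its number of rows is the number of sites that the paper gives for CPs, while its number of distinct positions is the number that the paper gives for CMs. The regions are therefore called those of CPs by their label, and every value below rests on that label. There was a single list and hence no spread between replicates. The depth of the libraries is unknown, and a gene without a listed region may have been unbound or below the threshold of the authors. Intervals of shares are Wilson 95% intervals, which cover counting error only. The interval of a median width is a 95% interval read from the ordered widths. No test was made. A promoter reached 1 kb either side of any annotated transcription start site (TSS). Because CpG-rich promoters held a region more often, each gene was set beside all other protein-coding genes with exactly the same number of CG dinucleotides within 1 kb of the TSS, called same-CpG genes below.

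Of the 40 genes, 18 had a BRG1 region at the promoter, or 45.0% (30.7 to 60.2%). Among all protein-coding genes the share was 11.9%, and among same-CpG genes it was 29.7%, which would give 11.9 of 40 genes. Within 100 kb of a TSS, 28 of 40 genes had a region, or 70.0% (54.6 to 81.9%), beside 38.3% of all genes and 53.9% of same-CpG genes. Genes of the same CpG count thus lay between the genome at large and the pathway. Both same-CpG shares lay just under the lower end of the interval, and some definitions put them inside it. With the CpG count taken at the 5′-most TSS the promoter share of same-CpG genes was 31.9%, and with counts within 5 of each other the share within 100 kb was 55.6%. From TSS to nearest region the median distance was 4.36 kb over the pathway genes and 166 kb over all protein-coding genes on chromosomes with regions, and a region covered a TSS in 27.5% of the former and 6.43% of the latter. Neither of these was set beside same-CpG genes, and the median CpG count was 134.5 over the pathway genes and 66 over all protein-coding genes.

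The roles differed in how often a region lay at the promoter, although each role has few genes and the intervals overlap. Smads came first with 6 of 8 genes (75%, same-CpG 41.3%), followed by receptors with 6 of 10 (60%, same-CpG 41.0%) and antagonists with 3 of 6 (50%, same-CpG 18.8%). The receptor and Smad same-CpG shares rest in part on very small sets, of 1 gene for Bmpr1a and 2 genes for Smad2. With Bmpr1a and Smad2 left out, the promoter share over all roles was 42.1%, beside 27.3% of same-CpG genes. Ligands had 3 of 12 (25%, same-CpG 21.2%), close to their same-CpG genes. None of the 4 Ids had a region at the promoter (interval up to 49.0%, same-CpG 19.9%). At the promoter the same-CpG share lay inside the interval of every role. The intervals began at 40.9% for Smads, 31.3% for receptors and 18.76% for antagonists (same-CpG 18.84%). Within 100 kb the order changed, with all 8 Smads (same-CpG 61.4%), 3 of 4 Ids (same-CpG 51.3%), 7 of 10 receptors (70.0%, same-CpG 61.4%), 7 of 12 ligands (58.3%, same-CpG 47.5%) and 3 of 6 antagonists (50%, same-CpG 45.7%). The same-CpG share lay inside the interval of each role but the Smads, whose interval began at 67.6%.

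**Figure D1:**
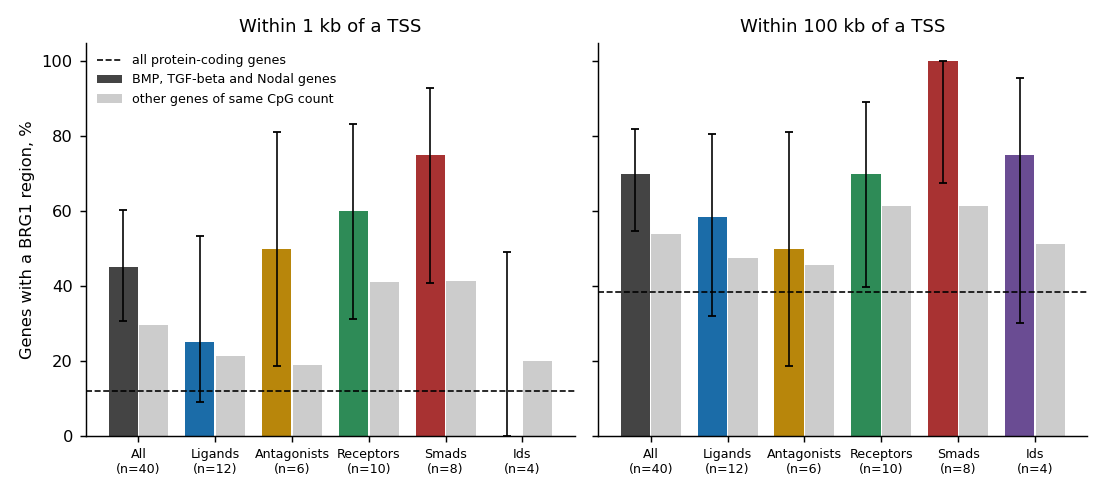
Share of genes with a BRG1 region (y axis, percent) within 1 kb of a TSS (left) and within 100 kb (right), for all 40 genes and by role. Coloured bars are the pathway genes with Wilson 95% intervals, grey bars their same-CpG genes, and the dashed line all protein-coding genes (11.9% and 38.3%). Smads stood highest in both panels, and Ids went from 0 of 4 at the promoter to 3 of 4 within 100 kb.

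**Figure D2:**
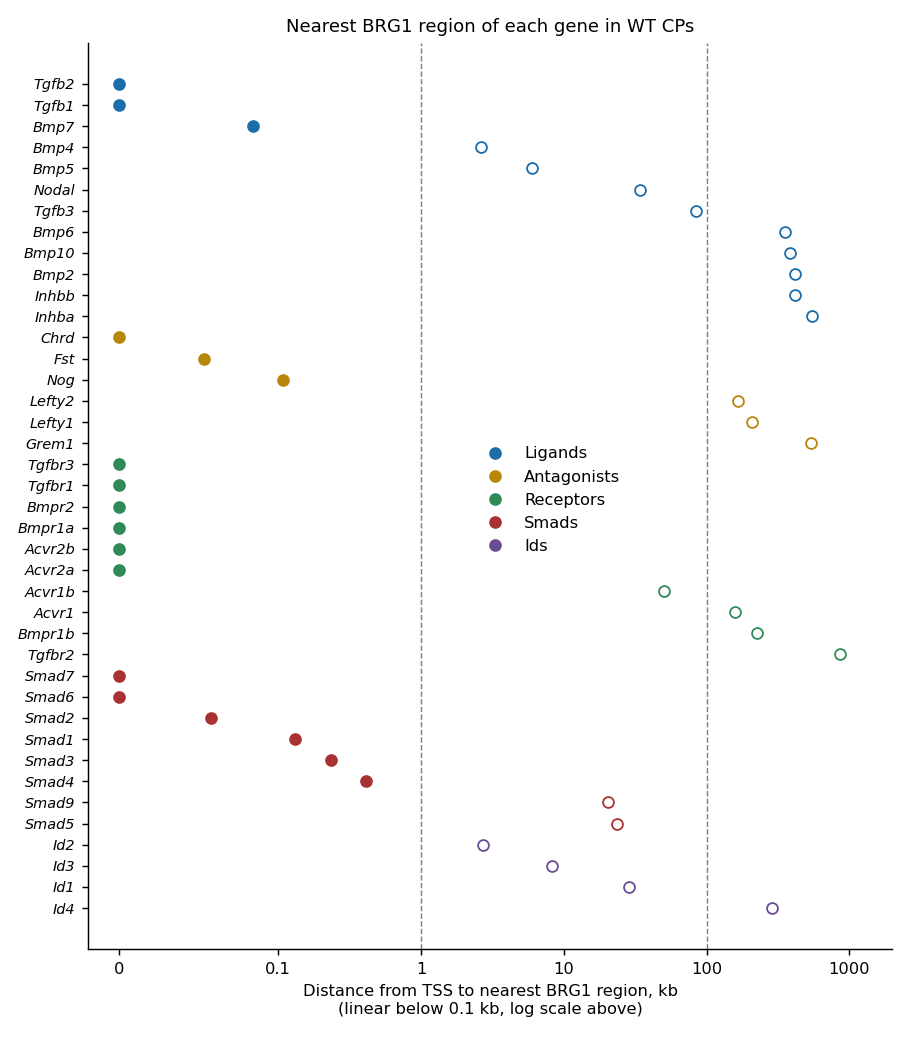
Distance from the TSS to the nearest BRG1 region in kb (x axis, linear below 0.1 kb and log scale above) for each of the 40 genes, grouped and coloured by role. Filled points are genes with a region at the promoter, and dashed lines mark 1 kb and 100 kb. All 8 Smads lay left of 100 kb, and Tgfbr2 was the farthest gene at 864 kb.

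The sequences of the regions are shown for the widest promoter region of each role, Tgfb1, Chrd, Bmpr2 and Smad6 (no sequence of Smad7, whose region was wider, is shown), as the longest stretch outside untranslated exons, cut to 240 bases at most. The Ids had no promoter region, and the nearest regions of Id2 and Id3 were added after their values had been seen. Each stretch is from mm9, written 5′ to 3′ on the strand of the gene. Capitals mark SMAD words, searched on both strands: GGCGCC, the GC-rich element bound by BMP Smads, GTCTAGAC, the palindromic element of Smad3 and Smad4, and a joint element of GGCGCC, 5 bases of any kind and GTCT. The joint element contains a GGCGCC, so that each joint match is also a GGCGCC match.

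Stretch of Tgfb1, chr7:26472888-26473127, plus strand, 867 to 1106 bp downstream of the TSS in coding sequence:
Tgfb1: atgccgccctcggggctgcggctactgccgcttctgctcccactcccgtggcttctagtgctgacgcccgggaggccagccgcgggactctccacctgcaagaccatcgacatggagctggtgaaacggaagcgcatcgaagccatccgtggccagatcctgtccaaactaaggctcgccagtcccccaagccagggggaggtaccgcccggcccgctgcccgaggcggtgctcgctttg
Stretch of Chrd, chr16:20732960-20733199, plus strand, the 240 bases before the TSS:
Chrd: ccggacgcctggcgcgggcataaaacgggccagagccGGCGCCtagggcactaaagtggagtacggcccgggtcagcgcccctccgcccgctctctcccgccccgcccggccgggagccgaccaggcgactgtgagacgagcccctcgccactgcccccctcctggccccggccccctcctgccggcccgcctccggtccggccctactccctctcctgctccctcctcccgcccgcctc
Stretch of Bmpr2, chr1:59821241-59821480, plus strand, the 240 bases before the TSS:
Bmpr2: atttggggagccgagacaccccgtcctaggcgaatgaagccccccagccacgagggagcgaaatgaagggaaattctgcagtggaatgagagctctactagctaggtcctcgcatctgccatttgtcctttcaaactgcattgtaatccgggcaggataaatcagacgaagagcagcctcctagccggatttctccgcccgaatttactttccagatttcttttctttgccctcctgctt
Stretch of Smad6, chr9:63869867-63870085, minus strand, the 219 bases before the TSS:
Smad6: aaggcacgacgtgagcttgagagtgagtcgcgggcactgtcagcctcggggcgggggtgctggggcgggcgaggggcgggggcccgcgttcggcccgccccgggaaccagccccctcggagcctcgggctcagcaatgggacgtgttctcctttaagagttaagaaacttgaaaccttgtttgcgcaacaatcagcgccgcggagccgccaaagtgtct
Palindromic element of Smad6 with its flanks, chr9:63869852-63869881, minus strand, across the TSS:
Smad6 element: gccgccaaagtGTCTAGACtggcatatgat
Region of Id2, chr12:25783666-25783865, minus strand, 2709 to 2908 bp upstream of the TSS:
Id2: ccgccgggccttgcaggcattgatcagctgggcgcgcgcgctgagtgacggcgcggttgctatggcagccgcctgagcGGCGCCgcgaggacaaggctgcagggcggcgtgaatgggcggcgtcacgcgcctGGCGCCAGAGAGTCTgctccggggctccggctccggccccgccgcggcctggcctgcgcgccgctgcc
Stretch of Id3, chr4:135690926-135691165, plus strand, 8247 to 8486 bp upstream of the TSS:
Id3: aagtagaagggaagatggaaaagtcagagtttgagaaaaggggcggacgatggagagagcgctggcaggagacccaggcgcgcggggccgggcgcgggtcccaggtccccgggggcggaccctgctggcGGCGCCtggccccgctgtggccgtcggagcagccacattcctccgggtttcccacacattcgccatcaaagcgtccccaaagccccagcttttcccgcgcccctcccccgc

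The stretches differ in composition. G and C made up 77.1% of the Chrd stretch, 77.0% of the Id2 region, 67.5% of the Tgfb1 stretch, 65.8% of the Smad6 stretch and 51.7% of the Bmpr2 stretch, and the Bmpr2 stretch held 11 CG dinucleotides where the Chrd stretch of the same length held 27.

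Among the ligands, regions lay at the promoters of 2 of 3 TGF-beta genes, 1 of 6 BMP genes and 0 of 3 Nodal and activin genes. The same-CpG share of each gene ran from 7.19 to 36.4% over the TGF-beta genes and from 0 to 52.6% over the BMP genes. Over the Nodal and activin genes it ran from 4.42 to 42.4%. A difference between these groups was not tested. The region of Tgfb1 (chr7:26472006-26473185) was 1180 bp wide and ran from 15 bp before the TSS to 1164 bp after it, over 867 bp of untranslated exon and 298 bp of coding sequence. The region of Tgfb2 (chr1:188528486-188529345) was 860 bp wide, covered a TSS and was on 2 rows of the list. Both lay mainly downstream of the TSS. Bmp7, a BMP of many developing organs, had a 260-bp region (chr2:172765906-172766165) that ended 84 bp upstream of the TSS. A second region of 560 bp (chr2:172762886-172763445) lay in its intron, with its near edge 2148 bp downstream of another TSS of the gene. Tgfb3 had no promoter region, and its nearest region lay 83.6 kb away in an intron of Ttll5.

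Bmp4 itself, the ligand that was also supplied in the medium, had no region within 1 kb of a TSS. Its nearest region (chr14:47007106-47007565, 460 bp) lay inside the gene, 2645 bp downstream of the TSS in an intron, and at the start site of the annotated gene Gm15222. Bmp5 had a 260-bp intergenic region 6006 bp upstream. For Nodal, the ligand of the primitive streak, the nearest region was 34.4 kb upstream at the promoter of X99384. The remaining ligands lay far from any region: Bmp6 at 351 kb, Bmp10 at 383 kb, Bmp2 at 413 kb, Inhbb at 415 kb and Inhba at 547 kb. Bmp2, Bmp6 and Inhbb had 158 to 172 CG dinucleotides at the promoter, a count at which 41.7 to 52.6% of same-CpG genes had a region there. Bmp10, a ligand of the embryonic heart, had 43, and 1.60% of its same-CpG genes had a region.

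The antagonists fell into 2 sets of 3. Chrd, Nog and Fst, which encode the BMP and activin traps Chordin, Noggin and Follistatin, had a promoter region, while Lefty1, Lefty2 and Grem1 had none within 100 kb. The Chrd region (chr16:20732686-20733605) was 920 bp wide, reached from 514 bp before to 405 bp after the TSS, and was also at the promoter of Thpo. The regions of Nog (120 bp, from 108 bp after the TSS) and Fst (60 bp, from 53 bp after the TSS) were narrow, each on 1 row and wholly in untranslated exon. Of all 2510 regions at protein-coding promoters, 92.7% were as wide as that of Nog or wider and 99.3% as wide as that of Fst or wider, and when regions under 200 bp were left out Chrd was the single antagonist with a promoter region. Lefty1 and Lefty2, the Nodal antagonists, are neighbours on chromosome 1 and shared their nearest region, at the Acbd3 promoter 209 kb and 167 kb away. Grem1, which encodes Gremlin, was 541 kb from a region.

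The 6 receptors with a promoter region all had an annotated TSS covered by it, though not always the first. Of the 4 type II receptors, whose same-CpG shares ran from 17.6 to 55.6%, 3 were among them. Bmpr2, the type II receptor of BMPs, had a 1940-bp region (chr1:59819826-59821765), of which 1655 bp lay upstream of the TSS. Acvr2a had a 1140-bp region on 4 rows (chr2:48669346-48670485) and Acvr2b a 640-bp region (chr9:119311526-119312165), both mainly downstream. Of the 5 type I receptors, Bmpr1a and Tgfbr1 had a promoter region. That of Bmpr1a (chr14:35315206-35316525) was 1320 bp wide and on 6 rows, the most of the 18 promoter regions. It covered a coding TSS that lay 813 bp downstream of the first coding TSS. That of Tgfbr1 (chr4:47366206-47366725) was 520 bp wide on 4 rows and covered the TSS of a processed transcript 376 bp from the first coding TSS. Tgfbr3, the co-receptor betaglycan, had a 120-bp region over its TSS.

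The members of a receptor pair could differ. Tgfbr1 and Tgfbr2 encode the type I and type II receptors of TGF-beta, and Tgfbr1 had a region over a TSS while Tgfbr2 was 864 kb from the nearest region, with 110 CG dinucleotides at the promoter beside 179 at Tgfbr1. Bmpr1a had a region and its paralogue Bmpr1b, with 92 CG dinucleotides beside 217, was 226 kb from the nearest. Acvr1, which encodes ALK2, had 171 CG dinucleotides, more than Bmpr2 with 114, and no region within 100 kb. The nearest lay at the promoter of Acvr1c, 158 kb from a TSS of Acvr1 other than the one with that CpG count. Acvr1b, the receptor of activin and Nodal, had none at the promoter and a region of 140 bp 50.2 kb downstream at the Grasp promoter.

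The inhibitory Smads had the widest promoter regions of the Smads, and both covered the TSS. The Smad7 region, on chromosome 18, was 2660 bp wide, on 4 rows, and reached from 977 bp before to 1682 bp after the TSS. It ranked 8 by width among the 2510 regions at protein-coding promoters. The Smad6 region (chr9:63868966-63870085) was 1120 bp wide and ranked 228. The other Smads with a promoter region, Smad1 (560 bp), Smad2 (180 bp), Smad3 (640 bp) and the common Smad4 (220 bp), had it wholly downstream of the nearest TSS, starting 132, 58, 236 and 409 bp after it. Intron made up 426 bp of the Smad1 region, 179 bp of the Smad2 region, 353 bp of the Smad3 region and the whole of the Smad4 region. All 6 receptor regions and both inhibitory Smad regions covered a TSS, and none of these 4 Smad regions did.

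Smad5 and Smad9, both of the BMP branch, had no promoter region. Smad5 had 160 CG dinucleotides and a 160-bp intergenic region 23.6 kb upstream. Smad9, with 94, was 20.3 kb from the shared promoter of Alg5 and Exosc8. Of the BMP-branch Smads, Smad1 alone had a region at the promoter, while Smad2 and Smad3 of the TGF-beta branch both did. The same-CpG share of each gene ran from 11.4 to 48.6% over Smad1, Smad5 and Smad9. It was 50% for Smad2, from 2 genes, and 25% for Smad3. A difference between these branches was not tested.

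**Figure D3:**
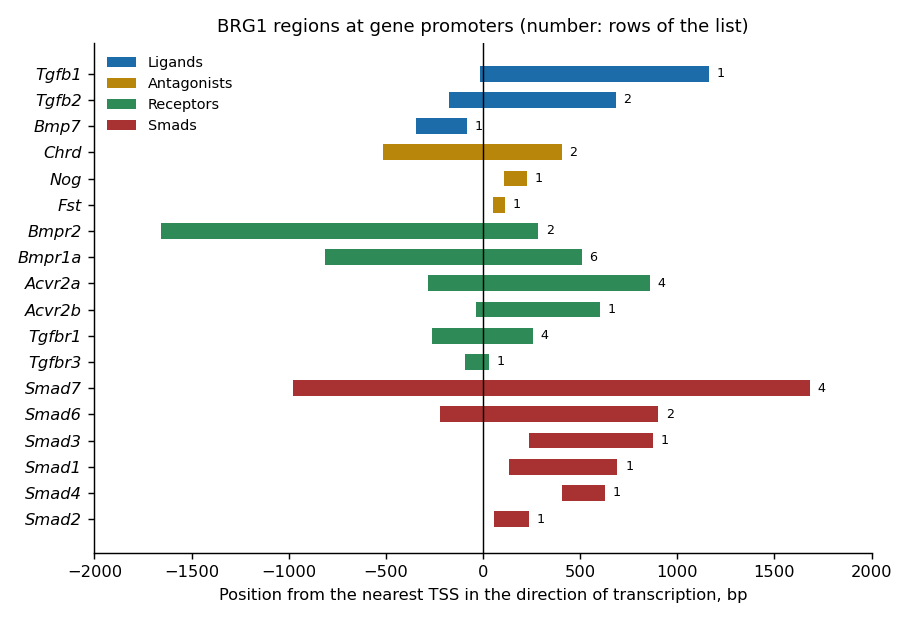
Extent of the 18 BRG1 regions at promoters relative to the nearest TSS (x axis, bp, positive in the direction of transcription), coloured by role, with the number of rows of the list beside each bar. The 6 receptor regions cross the TSS, Smad7 has the widest region at 2660 bp, and Smad1, Smad2, Smad3 and Smad4 lie wholly downstream.

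Over the 18 promoter regions the median width was 640 bp (interval of the median 220 to 1140 bp), beside 420 bp over the 2510 regions at protein-coding promoters, a value inside that interval. Counting each row of the list in place of each region, the medians were 1120 bp and 620 bp. A width of 1 kb or more was reached by 6 of the 18 (33.3%), Smad7, Bmpr2, Bmpr1a, Tgfb1, Acvr2a and Smad6, and by 12.5% of all promoter regions. More than 1 row was taken by 8 of the 18 (44.4%) and 27.1% of all. What repeated rows stand for is not stated. In 11 of the 18 genes (61.1%) the region covered a TSS, beside 53.9% of all genes with a promoter region, and 12 midpoints lay downstream and 6 upstream of the TSS, with a median of 210.5 bp downstream.

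The CpG count separated genes with and without a promoter region at its low end. The 12 genes with under 100 CG dinucleotides, among them Nodal, Bmp4, Inhba, both Leftys, Id1 and Id2, had no promoter region, and of other protein-coding genes with 50 to 99 the share was 8.03%. From 100 to under 150, 7 of 11 genes had a region (63.6%) beside 28.3% of other genes, and at 150 or more, 11 of 17 (64.7%) beside 48.4%. Genes with a region had 114 to 224 CG dinucleotides (median 155) and genes without had 22 to 172 (median 93), so the ranges overlapped. The 6 genes without a region at 150 or more were Acvr1, Bmp2, Bmp6, Id4, Inhbb and Smad5.

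**Figure D4:**
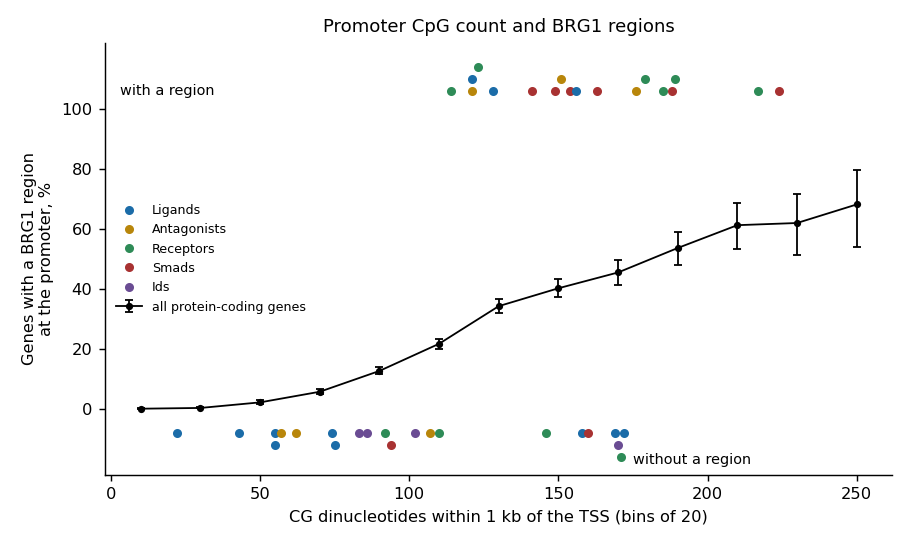
Percent of protein-coding genes with a BRG1 region at the promoter (y axis) against the number of CG dinucleotides within 1 kb of the TSS in bins of 20 (x axis), with Wilson 95% intervals. Points above and below the curve are the 18 pathway genes with a promoter region (114 to 224) and the 22 without (22 to 172), coloured by role.

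The regions near these genes went beyond promoters. Within 100 kb of the 28 genes lay 47 regions, of which 18 were at the promoters described, 12 at promoters of another gene and 17 away from any promoter. Of the 17, 9 were intergenic, 7 intronic and 1 exonic. In a count that was added after these values had been seen, 13 of the 40 genes (32.5%, 20.1 to 48.0%) had a region away from promoters within 100 kb, beside 8.79% of all protein-coding genes and 11.3% of same-CpG genes. These were 3 of 4 Ids (same-CpG 10.4%), 4 of 8 Smads (same-CpG 11.01%) and 5 of 12 ligands (same-CpG 10.2%). Among receptors it was 1 of 10 (same-CpG 14.2%) and among antagonists 0 of 6 (same-CpG 9.87%), both below the same-CpG share. Over all 40 genes the same-CpG share was thus below the interval here. The count was 9 genes within 50 kb (22.5%, same-CpG 6.86%) and 15 within 200 kb (37.5%, same-CpG 20.6%). It stayed at 13 for regions over 2 kb from any TSS (same-CpG 9.70%) and was 9 for regions over 5 kb from any TSS (same-CpG 7.65%). It fell to 8 genes (same-CpG 6.37%) for regions of at least 200 bp and to 2 (same-CpG 1.35%) for regions on more than 1 row.

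As a set these 17 regions were of ordinary width, with a median of 220 bp beside 200 bp over all 907 regions away from promoters, and 1 of 17 (5.88%) reached 1 kb beside 6.5%. Smad7 had 3 upstream, of 840, 780 and 100 bp, at 24.1, 47.5 and 92.9 kb. Smad6 had a 1080-bp region in its intron (chr9:63827006-63828085), 36.7 kb downstream of a TSS other than the one at its promoter region. It also had a region of 140 bp 62.9 kb upstream of the TSS at its promoter region. Smad4 had a 960-bp intronic region 4089 bp downstream, wider than its 220-bp promoter region. Tgfb3 had a 960-bp region on 2 rows 98.7 kb upstream, in Gm805. The intronic regions of Smad6, Smad4 and Bmp7 lay within those genes, and the others of the 17 are tied to a gene by distance alone.

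The regions of the Ids all lay upstream. That of Id2 was the closest, 2709 bp from the TSS and 200 bp wide. That of Id3 (chr4:135690606-135691165) was 560 bp wide at 8247 bp. Id1, the best known BMP target, had a 100-bp region 28.4 kb upstream in an exon of H13. Id4 had none within 100 kb, the nearest lying 285 kb away, although its 170 CG dinucleotides are the most of the 4 Ids. With promoters drawn as 5 kb either side of a TSS, Id2 was counted and the Ids had 1 of 4.

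**Figure D5:**
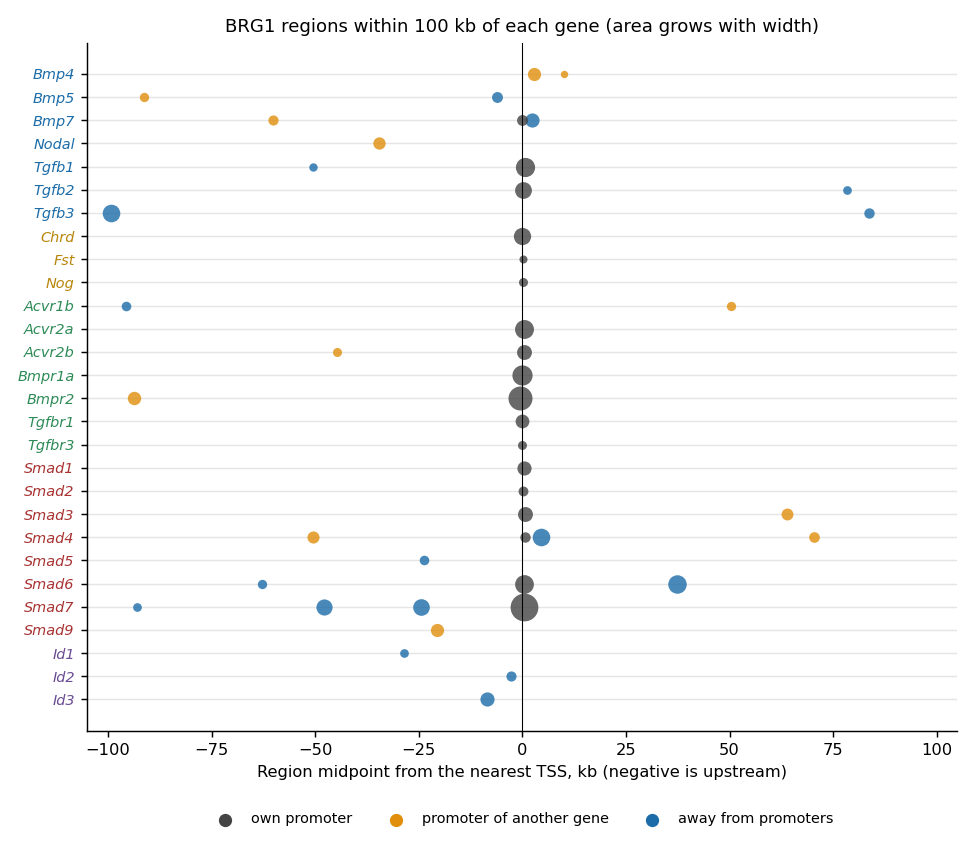
Midpoints of the 47 BRG1 regions within 100 kb of a TSS (x axis, kb, negative upstream) for the 28 genes with any, gene names coloured by role. Point area grows with region width, and colour tells own promoters (18), promoters of another gene (12) and regions away from promoters (17). The regions of Id1, Id2 and Id3 all lie upstream, and Smad7 has 3 upstream of its promoter region.

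The SMAD words were counted in the promoters and in the regions. GGCGCC was in 31 of 40 promoters (77.5%, 62.5 to 87.7%), beside 41.7% of all protein-coding promoters and 73.2% of those of same-CpG genes, which lies in the interval. In the 18 promoter regions it was found in 12 (66.7%), beside 53.8% of all promoter regions. Bmpr1a held 5 in its region, Smad7 held 4, and Acvr2a, Acvr2b, Bmpr2 and Tgfbr1 held 3 each.

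The palindrome GTCTAGAC was in 2 of the 40 promoters (5.0%, 1.38 to 16.5%). The share was 1.47% of all promoters and 1.57% of those of same-CpG genes, and both values lie in the interval. The 2 genes were the inhibitory Smads, and in each the palindrome lay inside the BRG1 region. In Smad6 it lay on the TSS, as printed above, and in Smad7 its centre was 349.5 bp upstream. Of all 3473 regions 10 held this palindrome (0.288%), and those of Smad6 and Smad7 were 2 of the 10. Wider regions hold more words, and these were 1120 and 2660 bp wide.

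The joint element was in 2 of 40 promoters (5.0%, 1.38 to 16.5%), beside 0.349% of all and 1.78% of same-CpG genes, the latter in the interval. These were the promoters of Grem1 and Id3, and in neither case was it inside a region. In Grem1 it lay 910 bp downstream of the TSS. In Id3 it lay 936 bp downstream of the TSS with the highest CpG count, which is not the TSS nearest to the Id3 region. None of the 18 promoter regions held it, beside 10 of 2510 at all protein-coding promoters (0.398%). Among the 907 regions away from promoters 1 held it, and that was the region of Id2, where it lay at chr12:25783719-25783733, centred 2769 bp upstream of the TSS. The same 200 bp held a second GGCGCC, both in capitals in the sequence above. This match was singled out after the values were seen, and a match of letters does not show that a Smad was bound. The region of Id3 held 2 GGCGCC and no joint element, and the region of Id1 held none of the 3 words.

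Other genes of the pathway, 64 in a wider list of ligands, antagonists, receptors, latency and processing factors, Smad regulators and targets, had a promoter region in 17 cases (26.6%, 17.3 to 38.5%), beside 19.8% of their same-CpG genes, which lies in the interval. Within 100 kb it was 37 of 64 (57.8%, same-CpG 48.7%). Smad regulators had 5 of 10 (same-CpG 36.1%), receptors 3 of 9 (same-CpG 12.5%) and targets 2 of 6 (same-CpG 26.8%). Antagonists had 3 of 13 (same-CpG 15.8%), ligands 3 of 19 (same-CpG 9.80%) and latency and processing factors 1 of 7 (same-CpG 34.8%). Each same-CpG share lay in the interval of its role. The 2 widest promoter regions were at Ski and Bmper. Ski and Skil, the SKI and SnoN co-repressors, had regions of 1600 and 960 bp, Pmepa1, a TGF-beta target that sequesters receptor Smads, had 780 bp, and Smurf2, a ubiquitin ligase of the pathway, had 740 bp. Bmper, which encodes an extracellular BMP regulator, had 1040 bp, and Zfyve9, which encodes the Smad anchor SARA, had 700 bp. Narrower regions were at Gdf6 (460 bp), Chrdl2 (440 bp), Rgma (420 bp), Gdf7 (360 bp), Rgmb (300 bp) and, at 260 bp each, Acvr1c, Wwp1, Msx1 and Twsg1.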

How the data were processed

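BRG1 ChIPseq in wild-type CPs was analysed from its list of bound regions. The authors crosslinked cells with disuccinimidyl glutarate and formaldehyde, digested chromatin with MNase, used fastq-mcf to trim single-end reads, mapped them with Bowtie (mm9), kept those of high mapping quality and called enriched bins against input DNA. Tool versions and the way the 2 ChIP libraries were combined are not given in the sources used here. The deposited values are positions in bp, with 4791 rows naming 3473 distinct regions. Each was counted once. The list is labelled as of wild-type CPs, but its number of distinct positions is the one that the paper gives for CMs, so that its cell state is in some doubt. The list holds a single state, so there is no comparison between conditions, and depth is unknown.

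Starts were counted from 0 in the list and are printed from 1. Regions were set against GENCODE M1 on the same build (mm9) with pandas 2.3.3 and numpy 2.4.6 under Python 3.11.15, sequence was read with samtools 1.23.1 and pysam 0.24.0, intervals came from scipy 1.17.1 and plots from matplotlib 3.10.9. Distance ran from the nearest base of a region to the nearest TSS of the gene. The CpG count was the highest in 2001 bp around any TSS of the gene, and a same-CpG share is the mean, over the pathway genes, of the percent of other genes with the same count that had a region. All 40 genes are named by role, with up to 15 of the other pathway genes by width of the promoter region. The genes and lists were chosen with earlier results of these data known. Distances and shares were tested on simulated regions. Promoter sequences of RefSeq, on another build, were not used here. The alternatives changed the promoter width, the TSSs, the distance limit, the regions counted and the match on CpG.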

Additional observations from a re-analysis of the deposited data

How the results depend on the processing

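No paired analysis was possible because both ChIP libraries stand behind a single set of positions, with no value per library, so leaving out a library could not be done either. Over 15 results and 100 alternatives, 82 values stayed close to those reported (a count within 1.5 times, a share or median within its sampling interval) and 18 moved. The median width of the promoter regions was 1120 bp over rows as listed, in place of 640 bp, and stayed in its wide interval. The share of pathway genes exceeded that of same-CpG genes in every alternative, by 9.52 to 19.28 percentage points at the promoter and by 4.24 to 21.56 points within 100 kb, where the 200-kb limit left 4.81. With regions of at least 200 bp, the shares were 35.0% (same-CpG 22.84%) at the promoter and 52.5% (same-CpG 44.47%) within 100 kb, where the difference fell from 16.14 to 8.03 points, the median distance 58.99 kb, antagonists with a promoter region 1, and genes with a region away from promoters 8. With regions on more than 1 row, 8 genes had a promoter region (1 ligand, 1 antagonist, 4 receptors, 2 Smads, 0 Ids) and 9 a region within 100 kb. Smads, at 2 of 8, then came after receptors, at 4 of 10. The same-CpG shares were 10.48% and 18.26%, the median distance was 532.3 kb, and 2 genes had a region away from promoters. The same-CpG share was 43.44% within 50 kb and 70.19% within 200 kb. Promoters of 5 kb either side counted 1 Id. In windows of 0.5 kb either side of the TSS, 0 of 40 promoters held the joint element. The stricter sets hold fewer regions by construction. The alternatives for regions away from promoters, and the one that left out genes with under 10 same-CpG genes, were chosen after seeing the data. A list without heights allowed no stricter threshold.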
